A study of Mus musculus with 4 samples.

Results

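Negative regulators of the small GTPases Ras and Ral were followed through a pair of piggyBac gene trap libraries, made in haploid neural stem cell-like cells of the mouse. The set holds 9 genes of the 5614 that were listed in either library. It comprises the Ral GTPase-activating complex (Ralgapa1, Ralgapa2 and Ralgapb) and 6 Ras GTPase-activating proteins (Nf1, Rasa1, Rasa2, Rasa3, Rasal2 and Dab2ip). The genes were picked by name and by function, and the set was chosen because Ralgapa1 and Nf1 led in reads. Read numbers of the members are therefore given as a description, without a test, and are not evidence that the group stands apart.

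The cells carry 1 chromosome set and came from 129Sv haploid embryonic stem cells. They were differentiated through embryoid bodies in N2B27 medium with FGF2, EGF, LDN193189 and SB431542, with Y-27632, Thiazovivin or both as ROCK inhibitor. They were then transfected with a piggyBac gene trapping plasmid and a codon-optimised transposase, and trapped cells were selected with G418. The junctions of transposon and genome were recovered by splinkerette PCR, in which genomic DNA carrying a ligated adapter is amplified by nested PCR, and were sequenced. The 4 samples form library 1 and library 2, each pooled from 2 samples in 1 table of reads per gene. The labels name no genotype, agent or time that differs between the libraries, do not say which ROCK inhibitor each received, and the tables carry no replicate. The identity of the cells cannot be checked here with marker genes, because the molecule sequenced was genomic DNA.

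Ras and Ral are membrane-bound switches that signal while they hold GTP. Receptors for growth factors such as FGF and EGF load Ras with GTP through exchange factors, and active Ras drives the Raf and MAP kinase cascade as well as exchange factors for Ral, which acts on vesicle tethering and other processes. GTPase-activating proteins end the signal by speeding up GTP hydrolysis. In a haploid cell an insertion that breaks such a gene leaves no other copy, and piggyBac inserts at the sequence TTAA.

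The 250 bases before the annotated start of the 3 members with most reads show how unevenly that target sequence occurs near their starts. They are RefSeq sequences of build GRCm38.p6, given 5′ to 3′ along the gene's strand, with TTAA in capitals. The first is chr12:55821517-55821766 on the minus strand, before the outermost of 2 annotated Ralgapa1 starts. The next is chr11:79339642-79339891 on the plus strand, before Nf1, and the last is chr1:157412596-157412845 on the minus strand, before Rasal2.
Ralgapa1: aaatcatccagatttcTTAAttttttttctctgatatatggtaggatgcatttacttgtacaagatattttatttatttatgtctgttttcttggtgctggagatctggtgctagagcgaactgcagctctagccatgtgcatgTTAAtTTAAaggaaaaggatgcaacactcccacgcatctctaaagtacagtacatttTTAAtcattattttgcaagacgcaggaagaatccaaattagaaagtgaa
Nf1: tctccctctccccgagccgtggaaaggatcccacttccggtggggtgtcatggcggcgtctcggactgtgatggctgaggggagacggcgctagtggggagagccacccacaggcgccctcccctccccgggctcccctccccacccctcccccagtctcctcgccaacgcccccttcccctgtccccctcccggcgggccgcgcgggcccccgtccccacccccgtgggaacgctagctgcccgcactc
Rasal2: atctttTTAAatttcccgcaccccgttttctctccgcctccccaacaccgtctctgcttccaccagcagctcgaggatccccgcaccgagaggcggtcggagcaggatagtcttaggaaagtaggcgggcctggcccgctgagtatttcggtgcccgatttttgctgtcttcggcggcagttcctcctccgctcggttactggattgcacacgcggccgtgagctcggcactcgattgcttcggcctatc

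The Ralgapa1 stretch holds 4 TTAA sites at 34.4% G and C, the Nf1 stretch 0 at 74.0%, and the Rasal2 stretch 1 at 59.6%. The motif searched was TTAA, which reads the same on both strands. Before the other annotated start of Ralgapa1 (chr12:55821168-55821417, minus strand) there were 3 sites. All 9 members matched a RefSeq entry, with 14 annotated starts in all. Of these, 4 had at least 1 TTAA, and they belonged to Ralgapa1, Rasal2 and Dab2ip. Over all 32851 such stretches of mouse genes, 49.0% held it. The member stretches were rich in G and C, with 12 of the 14 above the median of 52.4% over all stretches. The tables give the gene of a read but not its position, so none of these sites can be tied to a read.

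The depth of the libraries sets what can be read from a member. Library 1 held 55442 nonredundant and 877870 redundant reads over 4184 genes, and library 2 held 48750 and 1300140 over 3168 genes. Redundant reads include repeated copies, and nonredundant reads, whose definition is not given in the sources at hand, were never the larger of both counts in a gene. In both libraries the median listed gene had 1 nonredundant read. Genes on the Y chromosome, which haploid embryonic stem cells are known to lack, give a yardstick for such low counts. Library 1 listed 3 of them and library 2 listed 7, with at most 2 nonredundant reads each. Reads are PCR products without molecular identifiers, so all intervals below are exact 95% intervals that cover counting error only.

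Every member was listed in at least 1 library, 7 of 9 in library 1 and 6 of 9 in library 2. Over 21031 protein-coding genes, 19.9% were listed in library 1 and 15.0% in library 2. Ralgapa2, Nf1, Rasal2 and Dab2ip were in both, Ralgapa1, Rasa2 and Rasa3 in library 1 alone, and Ralgapb and Rasa1 in library 2 alone. Among all protein-coding genes 26.6% were in either and 8.25% in both. In each library 3 listed members had exactly 1 nonredundant read, no more than the Y-linked genes had. With 2 or more reads there were 4 members in library 1 (9.19% of all protein-coding genes) and 3 in library 2 (6.07%). With 10 or more reads there were 3 members in library 1, namely Ralgapa1, Nf1 and Rasal2 (2.37% of all genes tested), and 0 in library 2 (1.40%).

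**Figure D1:**
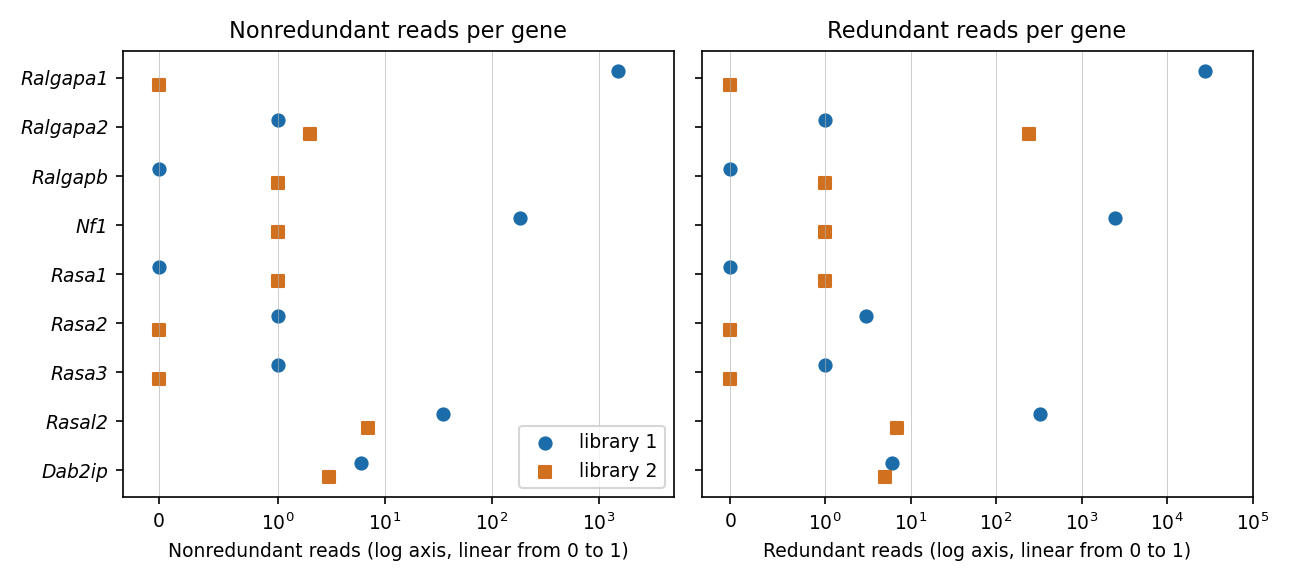
Nonredundant (left) and redundant (right) reads of the 9 members in library 1 (circles) and library 2 (squares), 1 pooled table per library, on log axes that are linear from 0 to 1. Ralgapa1 and Nf1 lie at 1506 and 182 nonredundant reads in library 1 and at 0 and 1 in library 2, while Ralgapa2 has 242 redundant reads in library 2.

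The summed reads of the set differed far more between libraries than the number of listed members. The 9 genes held 1732 nonredundant reads or 3.12% of library 1 (95% interval 2.98 to 3.27), and 15 reads or 0.0308% of library 2 (0.0172 to 0.0507). Ralgapa1 alone made up 87.0% of the member reads in library 1, and without it the other 8 genes held 226 reads. In library 2 the leading member was Rasal2 with 46.7% of the 15 reads. The median member had 1 nonredundant read in both libraries.

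Ralgapa1 encodes a catalytic alpha subunit of the Ral GTPase-activating complex. It had 1506 nonredundant reads in library 1, 2.72% of the library (2.58 to 2.86), and no read in library 2, where a count of 0 allows a share of up to 0.00615%. The share in library 1 was 441-fold the share that 3 counts would make up in library 2. Ralgapa1 ranked 1 of the genes of library 1 by nonredundant reads, ahead of Map7, which encodes a microtubule-associated protein and had 1315. By redundant reads it ranked 7, with 27721 against 61389 for Map7. Its 18.4 redundant reads per nonredundant read lay within the range of the 126 genes with 100 or more reads (1.69 to 76.1, median 12.0), and 39 of these genes had a higher value. The first place of Ralgapa1 therefore holds for nonredundant reads and not for redundant reads.

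The other subunits of the complex had few reads. Ralgapa2, the alternative catalytic alpha subunit, had 1 nonredundant read in library 1 and 2 in library 2. Those 2 reads stood for 242 redundant reads, or 121 per nonredundant read, and just 3 of the 521 genes with 2 nonredundant reads in library 2 had a higher value (median 1, highest 285.5). By redundant reads Ralgapa2 held rank 139 in library 2, and it made up 94.2% of the 257 redundant reads of all members there. Ralgapb, the beta subunit that both alpha subunits need, was not listed in library 1 (a share of up to 0.00541%) and had 1 read in library 2. Summed over the complex, library 1 held 1507 nonredundant reads and library 2 held 3.

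Nf1 encodes neurofibromin, a Ras GTPase-activating protein and tumour suppressor of the nervous system. It had 182 nonredundant reads in library 1, 0.328% of the library (0.282 to 0.379), and 1 in library 2. The ratio of these shares was 160 and rests on 1 read in library 2. The set was chosen for the reads of Nf1 among others, so this ratio is a description and no test between the libraries. In the order of library 1, Nf1 shared rank 69 with Ctif, also at 182 reads, and Hipk2 followed with 179. Its 2432 redundant reads placed it at rank 63. The ratio of 13.4 redundant per nonredundant read was close to the median of 12.0 for genes with 100 or more reads, and 54 of those 126 genes had a higher value.

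Rasal2 and Dab2ip, relatives of the synaptic protein SynGAP, were the members with more than 1 nonredundant read in each library. Rasal2 had 35 nonredundant reads in library 1 (0.0631%, 0.0440 to 0.0878) and 7 in library 2 (0.0144%, 0.00577 to 0.0296). The ratio of the shares was 4.40 with a counting interval of 1.92 to 11.7, which is not a test between the libraries. The 35 reads stood for 324 redundant reads, 9.26 each, whereas the 7 reads of library 2 stood for 7. Dab2ip, which also binds the adaptor DAB2, had 6 and 3 nonredundant reads and 6 and 5 redundant reads. Its ratio of shares was 1.76 with a counting interval of 0.376 to 10.9.

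Rasa1, Rasa2 and Rasa3 were each at the lower end of what the tables can hold. Rasa1 encodes p120 RasGAP, which binds activated receptors through SH2 domains, and had 1 nonredundant read in library 2 and none in library 1. Rasa2 and Rasa3, GAP1-type proteins with C2 and PH domains, had 1 nonredundant read each in library 1 and none in library 2. Only Rasa2 of the 3 had more redundant than nonredundant reads, with 3. A count of 0 allows up to 3 reads, so the libraries cannot be told apart for these genes.

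**Figure D2:**
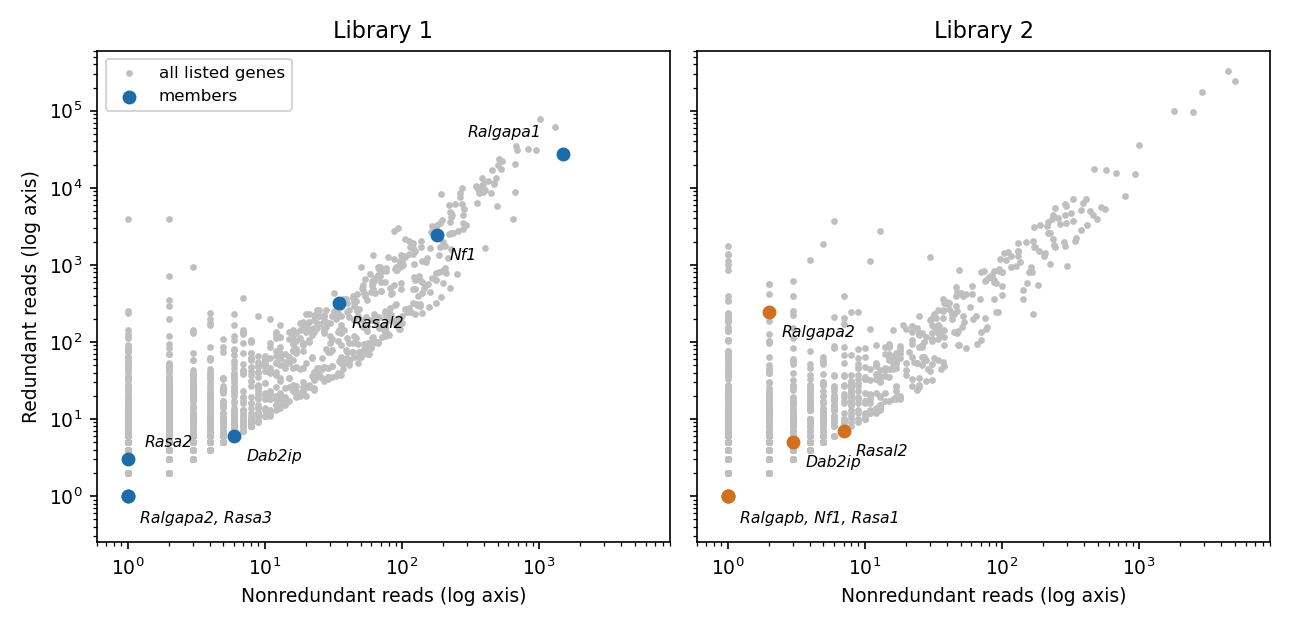
Redundant against nonredundant reads of every listed gene (grey) and of the members (coloured, named) in library 1 and library 2, on log axes. Ralgapa1 lies at the right end of library 1 with 1506 and 27721 reads, and Ralgapa2 lies high above most genes with 2 nonredundant reads in library 2, with 242 redundant reads.

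The members are long genes. The choice of the set did not use length itself, but it used reads, and longer genes were listed more often. The counts by class below are therefore a description of the set. By the order of gene lengths in GRCm38.p6, cut into 10 classes of equal size, 5 members lay in the longest class (Rasal2, Ralgapa2, Nf1, Ralgapa1 and Dab2ip, from longest to shortest) and the other 4 in the class below (Rasa3, Rasa2, Ralgapb and Rasa1). In the longest class 71.6% of genes were listed in library 1 and 58.3% in library 2, and the members there were listed in 5 of 5 and 4 of 5 cases. In the class below, 42.9% and 29.3% of genes were listed, and 2 of 4 members in each library. Among genes of the longest class, 13.5% had 10 or more reads in library 1 and 7.46% in library 2, against 3 and 0 of the 5 members. The members with 2 or more reads in either library were the 5 of the longest class, and the other 4 had 0 or 1 read in each. Within the longest class the order of reads differed from that of length. Ralgapa2, the next longest member after Rasal2, had 1 and 2 reads, while Ralgapa1, the fourth longest, had 1506 and 0.

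**Figure D3:**
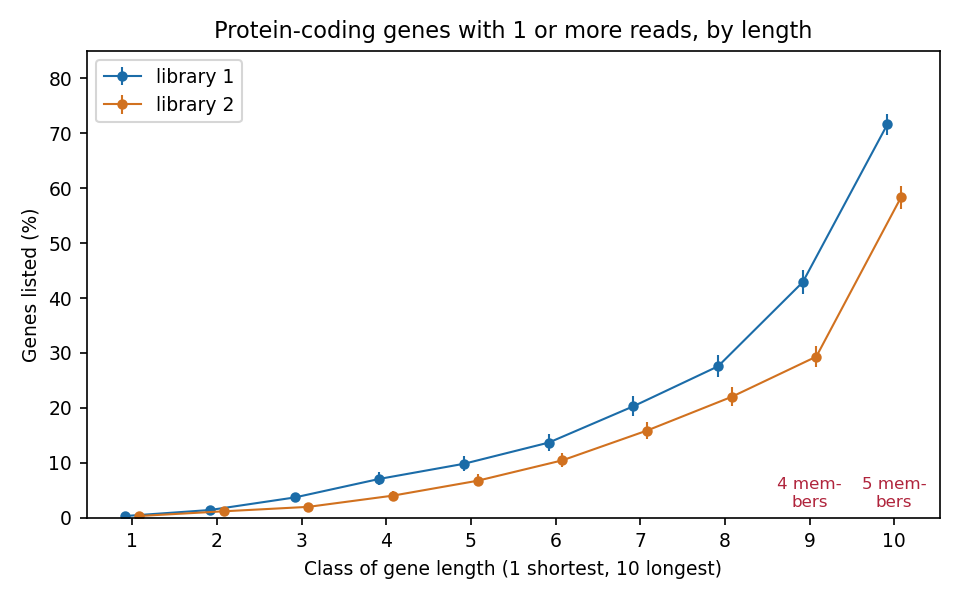
Share of protein-coding genes with 1 or more nonredundant reads (%) in 10 classes of gene length, from shortest to longest, for library 1 and library 2, with exact 95% intervals that cover counting error. All 9 members lie in the upper classes, 4 in class 9 and 5 in class 10, where 42.9% and 71.6% of genes were listed in library 1.

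Genes beside or inside the members were looked up by position, outside the rule that names genes. Nf1 contains the small genes Omg, Evi2, Evi2a and Evi2b, which lie within its bounds, and none of these 4 had a read in either library. How reads in overlapping genes were assigned is not given in the sources at hand. The nearest protein-coding genes on both sides of Ralgapa1 (Insm2 and Brms1l) and of Nf1 (Wsb1 and Rab11fip4) were also not listed. Of the 18 nearest neighbours of all members, 5 were listed in library 1 and 1 in library 2. Over all protein-coding genes the listed shares were 19.9% and 15.0%. Among these neighbours Lbp, next to Ralgapb, had 120 nonredundant reads in library 1, and Ttll11, next to Dab2ip, had 2 and 31. The nearest neighbours of Ralgapa1 and Nf1 thus did not share their high read counts, and most protein-coding genes were likewise not listed.

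The genes most like Ralgapa1 and Nf1 were found by the distance of log2(reads + 1) over 4 values, the nonredundant and redundant reads of both libraries, among 5613 other genes. Nearest to Ralgapa1 were Clnk (distance 0.870), with 837 nonredundant reads in library 1, Iffo2, with 679, and Proc (distance 1.65), with 507. None of the 3 was listed in library 2. Nearest to Nf1 were Itpr1 (0.34), with 179 nonredundant reads in library 1, Gphn (0.51), with 190, and Agap1 (0.59), with 161. Each of these had 1 read in library 2, as Nf1 had. The 4 values come from 2 pools of reads, and the likeness describes these pools alone.

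The rest of the pathway was described through 8 lists of 61 genes, none of them a member. Of these, 25 were listed in library 1 and 20 in library 2, or 41.0% and 32.8%, beside 19.9% and 15.0% of all protein-coding genes, and 20 of the 61 lie in the longest class of genes. The median gene of the lists had 0 reads in both libraries. With 10 or more reads there were 4 genes in library 1 and 2 in library 2, where all protein-coding genes gave 2.37% and 1.40%.

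Of 8 genes of the GTPases themselves, 1 was listed in each library, or 12.5%, beside 19.9% and 15.0% of all protein-coding genes. Mras had 1 nonredundant read in library 1 and Rras2 had 1 in library 2. None of the 8 lies in the longest class of genes. Among 8 Ras exchange factors, which load Ras with GTP, 5 were listed in library 1 and 1 in library 2. Rasgrp1, a diacylglycerol-regulated exchange factor, had 141 nonredundant and 1124 redundant reads in library 1 and 0 in library 2, a share at least 41.3-fold higher in library 1. Rasgrf2, a calcium-regulated exchange factor, had 4 reads in library 1 and 10 in library 2, and Sos1, which links growth factor receptors to Ras, had 2 and 0. The share of Rasgrf2 in library 1 was 0.352 of that in library 2, with an interval of 0.0805 to 1.22.

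The Ral branch had few reads outside Ralgapa1. Of 6 Ral exchange factors 2 were listed in library 1 and 3 in library 2. Ralgps2 had 1 and 2 nonredundant reads, Ralgps1 1 and 1, and Ralgds 0 and 1. Of 4 Ral effectors, Exoc2, a subunit of the exocyst that tethers vesicles, had 4 and 1 reads, and Tbk1, a kinase of innate immune signalling, had 1 and 0. The 4 reads of Exoc2 in library 1 stood for 201 redundant reads, and 3 of the 762 genes with 3 to 9 reads had a higher ratio than its 50.2.

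Other genes of the GTPase-activating family, the Spred genes and Lztr1 had 6 nonredundant reads or fewer. Of 7 such family genes 2 were listed in library 1 and 3 in library 2 (28.6% and 42.9%). All protein-coding genes gave 19.9% and 15.0%. Iqgap2, a scaffold with a Ras GAP-related domain, led with 6 and 3 nonredundant reads. These stood for 105 and 250 redundant reads. Iqgap1 had 2 and 0 nonredundant reads and Iqgap3 had 0 and 1. Of the 4 genes Spred1, Spred2, Spred3 and Lztr1, only Spred2 was listed, with 0 and 2 reads. Spred2 is one of the adaptors that bring neurofibromin to the membrane.

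Downstream of Ras, 4 of 9 Raf and MAP kinase genes were listed in library 1 and 3 in library 2 (44.4% and 33.3%). All protein-coding genes gave 19.9% and 15.0%, and 3 of the 9 lie in the longest class. Map2k1, the kinase MEK1, had 40 nonredundant reads in library 1 and 0 in library 2. Its share in library 1 was 11.7-fold that of 3 counts in library 2. Ksr2, a scaffold of the cascade, had 10 and 4. The 40 reads of Map2k1 stood for 246 redundant reads, a ratio of 6.15 beside a median of 3.42 for the 373 genes with 10 to 99 reads.

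Regulators of the related GTPases Rap and Rheb were listed for 9 of 15 genes in library 1 and 7 in library 2 (60.0% and 46.7%). All protein-coding genes gave 19.9% and 15.0%. Of the 15 genes, 10 lie in the longest class, where 71.6% and 58.3% of genes were listed. Rapgef2, an exchange factor for Rap, had 2 nonredundant reads in library 1 and 173 in library 2, with 3062 redundant reads there. Its share of library 1 was 0.0102 of that in library 2 (0.00122 to 0.0373), the opposite direction to Ralgapa1 and Nf1. Rapgef4 had 4 and 2 reads and Garnl3 had 4 and 1. Tsc2, the GTPase-activating protein for Rheb, was singled out after its values were seen. Its 2 nonredundant reads in library 1 stood for 3978 redundant reads, and none of the 677 genes with 2 reads there had a higher ratio than its 1989.

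**Figure D4:**
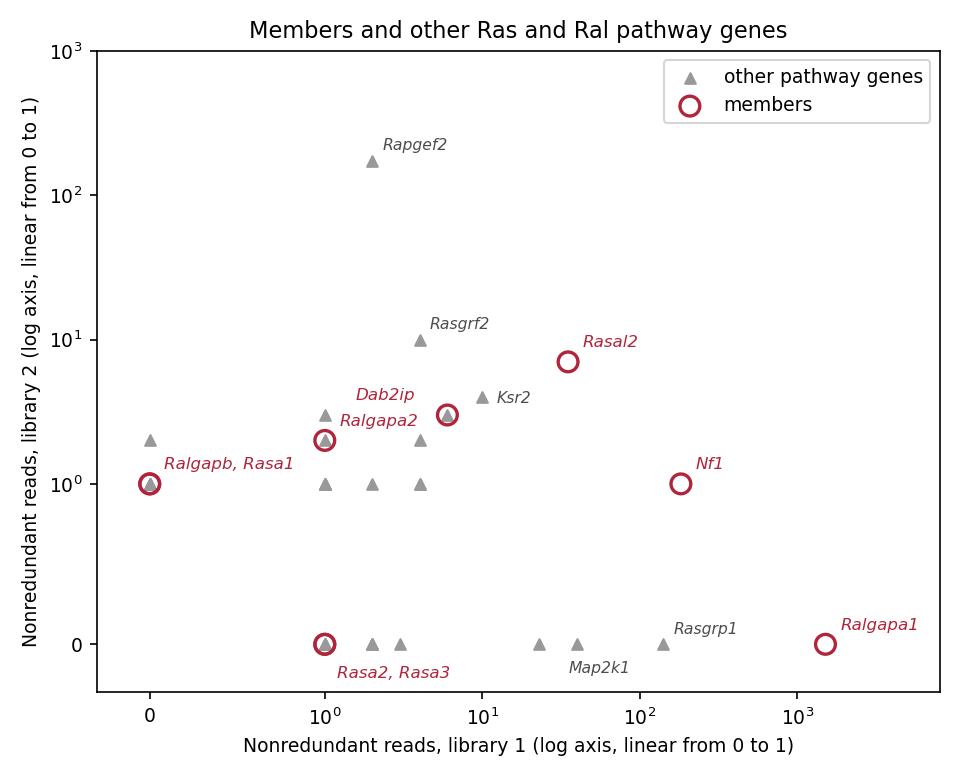
Nonredundant reads in library 1 (horizontal) and library 2 (vertical) of the 9 members (open circles, named) and of the listed genes among the 61 other pathway genes (triangles, some named), on log axes that are linear from 0 to 1; genes with the same counts overlap. Ralgapa1 and Nf1 lie far to the right at 1506 and 182 reads in library 1, and Rapgef2 lies at the top with 173 reads in library 2.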

How the data were processed

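Splinkerette PCR products of genomic DNA were measured in 4 samples, which the authors pooled into 2 tables of 2 samples. Per the file headers, the authors' deposited columns are raw counts of nonredundant and of redundant reads per gene, with no normalization. CASAVA and BWA and the build mm9 are named in the submitters' processing notes, without versions or roles. How reads were assigned to genes, filtered or called nonredundant is not given in the sources at hand. A gene absent from a table was taken as 0 reads.

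Genes were matched by transcript, then by symbol or synonym, to RefSeq genes of GRCm38.p6 (4182 of 4184 and 3167 of 3168 matched). That table served for names, neighbours and the order of gene lengths. The background was 21031 protein-coding genes with curated transcripts. Intervals are exact Clopper-Pearson 95% intervals of shares, and exact conditional binomial intervals of ratios of shares (Python 3.11.15, scipy 1.17.1). Both kinds were checked on simulated independent counts, which does not show their coverage for PCR reads. A count of 0 was bounded by 3 counts per library.

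The members and the 8 lists were chosen with earlier results of these data known. With 1 pooled table per library there is no replicate spread and no test between libraries, and differences describe these pools of reads. The text names all 9 members, up to 3 genes of each list by summed nonredundant reads, the 3 genes of most like pattern and the neighbours of Ralgapa1 and Nf1 in the read order. Alternatives were minima of 2 or 10 reads, redundant reads, and totals without leading genes. Some genes of the lists are not reported here by name and remain in the counts.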

Additional observations from a re-analysis of the deposited data

How the results depend on the processing

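The number of listed members depends on the minimum. In library 1, 7 became 4 at 2 or more nonredundant reads, 3 at 10 or more and 5 at 2 or more redundant reads. In library 2, 6 became 3, 0 and 3. The other pathway genes fell from 25 to 15, 4 and 19 in library 1 and from 20 to 8, 2 and 11 in library 2, and without the Rap and Rheb regulators, which leaves 46 genes, 16 and 13 were listed. The summed member share of library 1 (3.12%) was 3.47% by redundant reads, 3.65% with the 10 leading other genes left out of the total, and 0.408% without Ralgapa1. That of library 2 (0.0308%) was 0.0198%, 0.0533% and, without Rasal2, 0.0164%. The Ralgapa1 share of library 1 (2.72%) was 3.16% by redundant reads and 3.18% without the 10 leading other genes, and that of Nf1 (0.328%) was 0.277% and 0.384%. The members were chosen for reads that are high in library 1, so the direction between the libraries is set by that choice. No paired analysis was possible because each table pools its samples and carries no column per sample. Members with 1 or 2 nonredundant reads are at the level of Y-linked genes by that count. The depth therefore does not support a statement on whether they were hit. Redundant reads of Y-linked genes were not compared, and the 2 nonredundant reads of Ralgapa2 in library 2 stood for 242.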
